A study of Mus musculus with 24 samples.

Results

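Reserve and upper crypt stem markers are 8 genes that have each been used to mark stem or progenitor cells of the intestinal crypt other than, or in addition to, the Lgr5-expressing crypt base columnar cells: Hopx, Lrig1, Bmi1, Tert, Mex3a, Msi1, Prom1 and Sox9. They were taken as the rows of the deposited count table whose gene IDs carry these symbols, which gave 8 genes, 1 ID each, of 55421 genes in all. The choice used no measured value, but it was made with earlier results of these data known. All 8 passed the filter on low counts in each of the 12 comparisons below.

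The RNA came from small intestinal crypts of 8 mice, all carrying Lgr5-eGFP-CreERT2 and all given intraperitoneal tamoxifen, 1 mg on each of 3 days in a row, with cells taken at 4 days after induction. The 4 control mice (het) were Setd1aFC/+ and the 4 knockout mice (hom) were Setd1aFC/FC, so the controls carry Cre and tamoxifen and 1 conditional allele too. The ages of the mice were not used here. Epithelial cells were sorted by EpCAM, CD24 and CD45 into a stem, a transit-amplifying (TA) and a Paneth fraction, which made 24 bulk libraries in 6 groups of 4. The gates of each fraction are not given in the sources used here. Cre in this line is driven from Lgr5, so TA and Paneth cells carry the deletion only where they descend from recombined stem cells, and the share of such cells was not measured. Values are listed in the order BN44, BO27, BO58, BP03 for het and BN45, BO25, BO57, BP04 for hom, which are the animals' codes.

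Crypt base columnar cells divide daily at the crypt bottom between Paneth cells, and TA cells above them divide before they differentiate. Reserve stem cells are a proposed slower-cycling population near the fourth position from the crypt base, which several of these genes were first used to trace. Hopx is a small homeodomain protein that does not bind DNA. Lrig1 is a membrane protein that restrains ERBB receptors. Bmi1 is a subunit of Polycomb repressive complex 1, which ubiquitinates histone H2A, and Tert is the catalytic subunit of telomerase. Mex3a and Msi1 are RNA-binding proteins, Prom1 (CD133) is a membrane glycoprotein of cell protrusions, and Sox9 is a transcription factor of the crypt base that Paneth cells require. Setd1a encodes a histone methyltransferase that places H3K4 methylation, a mark of active promoters, in a complex that binds unmethylated CpG-rich DNA through its CXXC subunit.

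Because such complexes are recruited to CpG-rich promoters, the sequences before 3 of the start sites are shown, chosen to span a CpG-rich and a CpG-poorer start. They are the 250 bases before the RefSeq start on GRCm38.p6, read 5′ to 3′ on the gene's strand, with each CG in capitals. Each line begins with the gene, and the windows are, in the same order, chr6:94700146-94700395 on the minus strand, chr2:18676768-18677017 on the plus strand and chr5:77115124-77115373 on the minus strand.
Lrig1: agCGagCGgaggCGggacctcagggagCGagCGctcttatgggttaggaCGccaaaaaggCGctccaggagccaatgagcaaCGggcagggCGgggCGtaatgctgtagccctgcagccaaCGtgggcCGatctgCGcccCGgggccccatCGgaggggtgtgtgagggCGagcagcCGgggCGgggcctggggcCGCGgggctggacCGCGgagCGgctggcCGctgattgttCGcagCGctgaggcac
Bmi1: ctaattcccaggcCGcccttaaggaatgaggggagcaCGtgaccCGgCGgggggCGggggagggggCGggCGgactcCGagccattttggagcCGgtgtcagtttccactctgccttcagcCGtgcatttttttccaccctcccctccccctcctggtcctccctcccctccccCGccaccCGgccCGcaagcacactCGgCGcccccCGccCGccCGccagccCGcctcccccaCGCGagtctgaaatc
Hopx: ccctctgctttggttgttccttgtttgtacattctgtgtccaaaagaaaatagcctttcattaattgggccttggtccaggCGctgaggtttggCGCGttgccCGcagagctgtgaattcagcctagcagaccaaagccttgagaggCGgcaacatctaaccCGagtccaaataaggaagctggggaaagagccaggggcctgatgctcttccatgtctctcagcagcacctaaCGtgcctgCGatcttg
The Lrig1 window holds 26 CG, more than 90.4% of the 32851 windows in the RefSeq table, and the Bmi1 window holds 21, more than 83.7% of them. This Hopx window, at the upstream of its 2 listed starts, holds 8, near the median of 6 over all windows (quartiles 2 and 16). The other Hopx window has 18 CG, Mex3a 19, Tert 12, and the 2 Prom1 windows 3 and 9. Windows were matched for 6 of the 8 genes. The letters CTTTGA, the core of sites bound by TCF factors, were searched on both strands, are found in 13.8% of all windows, and were in 0 of the 8 windows of these genes. RNA counts were the only readout, so no mark or factor at these windows was measured.

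All positions are those of the deposited table on mm10. Hopx lies at chr5:77086988-77115121 on the minus strand and Lrig1 at chr6:94604529-94700158 on the minus strand. Bmi1 lies at chr2:18677018-18686629, Tert at chr13:73626911-73649843 and Mex3a at chr3:88532395-88541396, all on the plus strand. Msi1 lies at chr5:115429599-115455698 on the plus strand, Prom1 at chr5:43993620-44102032 on the minus strand and Sox9 at chr11:112782224-112787760 on the plus strand. Each count sums the exons of its gene. Exons of Hopx share 412 bases, 27.2% of their length, with the antisense gene Hopxos, and counting took no account of strand and no option for fragments over 2 genes, so reads there cannot be told apart. Hopxos itself had 0 to 96 counts in a library. Exons of Prom1 share 5.91% of their length with Gm16401, those of Lrig1 2.58% with Slc25a26 and those of Mex3a 1.42% with Mir1905, and Bmi1, Tert, Msi1 and Sox9 share none.

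Library totals ran from 24.7 to 47.1 M counts. Levels are in CPM, counts brought to 1 common library size, after TMM scaling over all 24 libraries, which sets the bulk of genes level between libraries, and errors are the SD of 4 libraries, each from a separate animal, so p-values measure the spread between animals. Setd1a itself, summed over all its exons, had group means between 4.86 and 6.23 CPM except in het Paneth libraries (9.73 CPM), and its level does not check a deletion of part of the gene. As a check of the fractions, the summed CPM of 15 crypt base columnar markers ran from 28056 to 46698 in stem libraries, from 5181 to 10525 in TA libraries and from 3869 to 10320.1 in Paneth libraries. The 10 Paneth markers took 8.25% to 36.9% of counts in het and 17.9% to 47.7% in hom Paneth libraries, against at most 0.619% in stem and TA libraries. The same Paneth libraries carried enteroendocrine markers at 0.165% to 0.945% of counts and tuft markers at 0.253% to 0.983%, with all 12 markers of each type detected. Goblet markers took 0.134% to 0.786% of their counts. In TA libraries they took 0.720% to 1.85% of counts in het and 0.584% to 1.53% in hom. So the Paneth fraction held RNA of other secretory cells too, and results given below for Paneth cells are those of this mixed fraction. The TA fraction, against which many results are given, held goblet RNA as well. In bulk RNA, fewer cells of a type and less RNA per cell cannot be told apart.

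**Figure D1:**
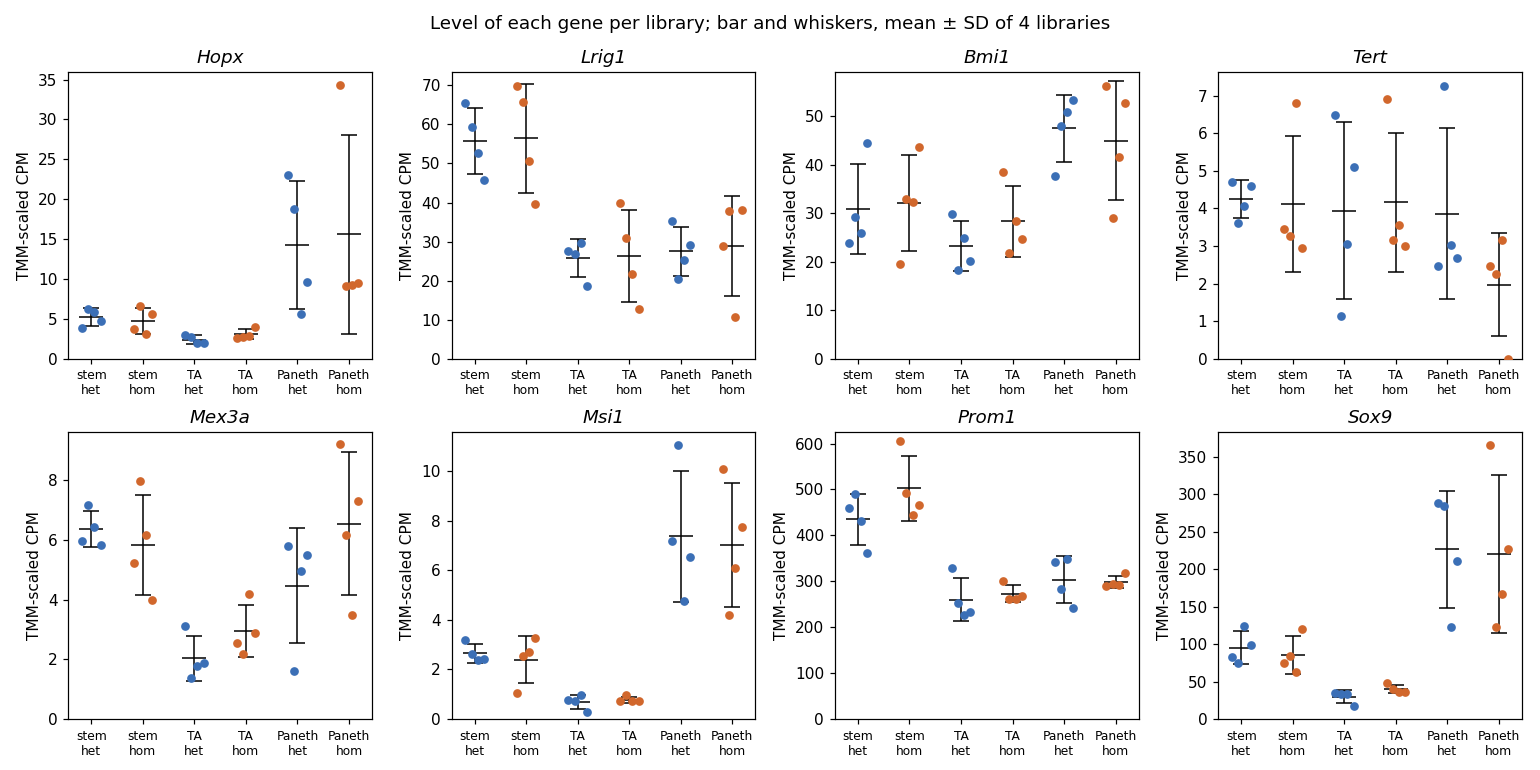
TMM-scaled CPM of each of the 8 genes (y axis, linear, from 0) in the 6 groups (x axis), with 1 point per library, het in blue and hom in orange, and a bar with whiskers for mean ± SD of 4 libraries. Lrig1 and Prom1 are highest in stem libraries, Hopx, Msi1 and Sox9 in Paneth libraries, and the het and hom points overlap in every pair but Sox9 in TA.

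The 8 genes covered a wide range of abundance. Per kilobase of exon, the mean level in het stem libraries was 60.7 CPM for Prom1, 23.0 for Sox9, 9.98 for Lrig1 and 7.78 for Bmi1. On the same per-kilobase scale it was 3.43 CPM for Hopx, 1.10 for Mex3a, 0.741 for Tert and 0.458 for Msi1. Counts per library ran from 3650 to 26258 for Prom1 but from 12 to 240 for Msi1 and from 0 to 299 for Tert. The last 2 had the lowest median counts of the 8, 95 and 117.

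The genotype comparison asks what loss of Setd1a does in each fraction. None of the 8 genes passed the test between hom and het in the stem, TA or Paneth fraction. In that test, used throughout (edgeR quasi-likelihood, Benjamini-Hochberg adjusted p under 0.05 over all genes tested), 0 of 8 passed in each fraction, and 0 of 8 had an unadjusted p under 0.05. The background was as low, with 0.0125% of 16056 genes called in stem, 0% of 15925 in TA and 0% of 16108 in Paneth libraries. DESeq2 also called 0 of the 8 genes in each fraction, while it called 187, 70 and 6 genes over all. Counts were simulated with 100 genes at a log2 change of 1 and 100 at 2. At a change of 1, the stem comparison recovered 38% of changed genes and the Paneth comparison 9%, so 2-fold changes would often be missed. The changed genes had a mean of at least 5 CPM, above the stem group means of Msi1 (2.66 and 2.40 CPM) and Tert (4.25 and 4.11 CPM). For these genes the recovery was not measured, and hom against het in TA was not simulated.

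In stem libraries the intervals of the better counted genes were narrow. The log2 difference of hom minus het was 0.20 for Prom1 (95% interval -0.13 to 0.53), 0.01 for Lrig1 (-0.45 to 0.47) and 0.05 for Bmi1 (-0.57 to 0.66). It was -0.17 for Sox9 (-0.68 to 0.35), -0.13 for Hopx (-0.84 to 0.59) -0.13 for Mex3a (-0.73 to 0.47) and -0.06 for Tert (-0.80 to 0.69). For these 7 genes the interval stays within a 2-fold difference in either direction. For Msi1 the log2 difference was -0.16 (-1.05 to 0.74), an interval that still reaches a 2-fold lower level. The median over the 8 was -0.09, beside 0.00445 over all genes tested.

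In TA libraries all 8 point estimates were above 0, with a median log2 difference of 0.24 beside 0.000325 over all genes. The largest were 0.54 for Mex3a (-0.28 to 1.37), 0.44 for Sox9 (-0.05 to 0.94) and 0.35 for Hopx (-0.33 to 1.04), none past the test (adjusted p 0.94, 0.89 and 0.97). The others were 0.29 for Bmi1 (-0.20 to 0.78), 0.20 for Msi1 (-0.98 to 1.38), 0.09 for Tert (-1.02 to 1.20), 0.08 for Prom1 (-0.23 to 0.39) and 0.04 for Lrig1 (-0.65 to 0.74). Sox9 was the only gene whose het and hom libraries did not overlap in any fraction, a pattern that 3.79% of 19396 genes showed between the TA groups, 4.33% between the stem groups and 1.84% between the Paneth groups. Its unadjusted p was 0.075. With neighbouring animal codes as a block the sign of Lrig1 turned, and leaving out single animals turned the signs of Lrig1, Tert and Msi1 in TA. Of the 15 crypt base columnar markers, 14 were above 0 in TA libraries, with a median of 0.33 and 0 past the test. Other lists leaned too, each with 0 past the test. Of the 14 S phase genes 0 were above 0 (median -0.22), of the 14 G2 and mitosis genes 1 was (-0.14), and of the 10 Paneth markers 8 were (0.82). Such leans were not particular to TA, again with 0 past the test. In stem libraries 13 of 15 crypt base columnar markers (0.14) and 8 of 14 S phase genes (0.06) were above 0. In Paneth libraries 14 of 14 S phase genes (0.18), 4 of 14 G2 and mitosis genes (-0.07) and 10 of 10 Paneth markers (0.69) were. The summed Paneth markers stood at 5293 CPM in hom TA library BN45 and at 763 to 1370.0 CPM in the other hom TA libraries, against 947 to 1679 CPM in het. Their part in the TA estimates of the 8 genes was not tested.

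In Paneth libraries 3 of 8 estimates were above 0, with a median of -0.03 beside -0.00312 over all genes. The log2 difference was -0.03 for Prom1 (-0.45 to 0.39), -0.08 for Bmi1 (-0.61 to 0.45) and -0.03 for Sox9 (-0.86 to 0.79). The estimate for Hopx was 0.14 (-1.12 to 1.39) and that for Tert -0.96 (-3.20 to 1.28), intervals that reach past a 2-fold difference, as that of Mex3a does. The 3 remaining genes were Mex3a, with the largest estimate above 0 at 0.55 (-0.58 to 1.67), Lrig1 at 0.06 (-0.75 to 0.87) and Msi1 at -0.06 (-0.98 to 0.85).

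The differences between fractions in the genotype effect were tested as well, and 0 of 8 passed for stem minus TA, stem minus Paneth or Paneth minus TA, where 0%, 0% and 0.00516% of 19396 genes did. For stem minus TA the log2 estimates ran from -0.65 (Mex3a, 95% interval -1.75 to 0.45) to 0.14 (Prom1, -0.30 to 0.57). For stem minus Paneth they ran from -0.67 (Mex3a, -1.77 to 0.43) to 0.93 (Tert, -1.18 to 3.04). For Paneth minus TA they ran from -1.05 (Tert, -3.17 to 1.06) to 0.04 (Lrig1, -0.93 to 1.00).

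**Figure D2:**
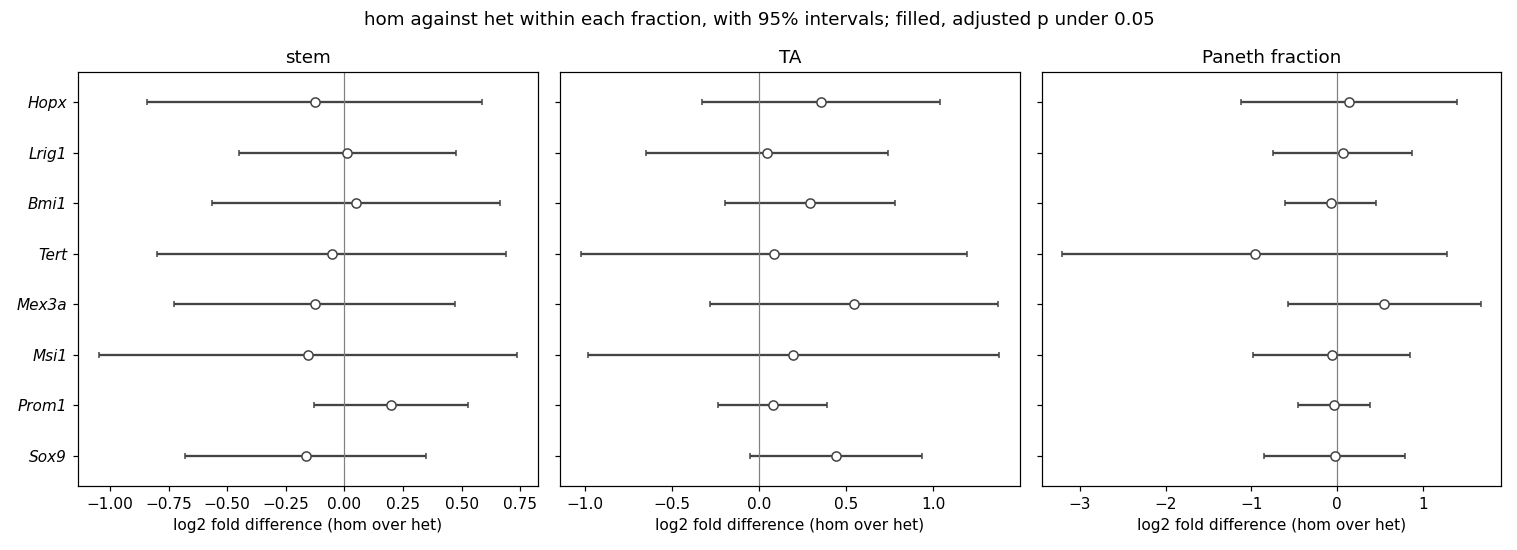
log2 difference of hom over het (x axis, one scale per panel) for each of the 8 genes (y axis) in stem, TA and Paneth libraries, with 95% intervals and open symbols for an adjusted p of 0.05 or more. Every symbol is open and every interval crosses 0, and all 8 TA estimates lie at or right of 0.04.

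The fractions did differ, and the 8 genes fell into different patterns rather than 1. In het animals, Lrig1, Mex3a, Msi1, Prom1 and Sox9 stood higher in the stem than in the TA fraction, and Hopx, Bmi1, Msi1 and Sox9 stood higher in the Paneth than in the TA fraction. In stem against TA cells of het mice, 5 of 8 were higher and 0 lower, where 2.69% of 16182 genes were called higher, 3.57% lower and 6.26% in either direction. In hom mice 2 of 8 were higher and 0 lower (2.03% of genes higher, 2.58% lower, 4.61% in either direction). In the Paneth fraction against TA cells, 4 of 8 were higher in het (17.4% of genes higher, 29.2% either way) and 3 of 8 in hom (16.3% and 28.5%). In the Paneth fraction against stem cells, 3 were higher and 1 lower in het (17.3% and 11% of genes, 28.3% in all) and 3 higher and 1 lower in hom (17.4% and 13.2%, 30.5% in all). Read by overlap, all 4 libraries of 1 fraction lay above all 4 of the other for 6 of 8 genes between stem and TA in het (13.5% of 19396 genes) and 3 of 8 in hom (11.5%). Between Paneth and TA this held for 4 of 8 in het (31.3%) and 3 of 8 in hom (29.6%), and between Paneth and stem for 4 of 8 in het (31.3%) and 5 of 8 in hom (31.5%). The het and hom counts come from separate tests and the interaction tests above called 0 of the 8 genes. The tests between fractions treated libraries of the same animal as separate, and the animal was a block only among the alternatives. Goblet markers moved with the stem against TA contrast too: their summed level ran from 117 to 1103 CPM in stem and from 5417 to 15942 CPM in TA libraries, all 8 were lower in stem cells of each genotype, and their part in these results was not tested.

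Lrig1 and Prom1 were highest in stem cells. Lrig1 was at 65.4, 59.2, 52.7 and 45.6 CPM in het stem libraries and at 27.5, 26.9, 29.7 and 18.6 CPM in het TA libraries. All 4 stem libraries lay above all 4 TA libraries, and means were 55.7 ± 8.48 and 25.7 ± 4.87 CPM, a log2 difference of 1.12 (SE 0.19, adjusted p = 0.0081), which missed the threshold in a fit of all 24 libraries (1.12, adjusted p = 0.059). In hom mice Lrig1 was at 69.9, 65.7, 50.6 and 39.5 CPM in stem and 39.9, 30.9, 21.7 and 12.9 CPM in TA libraries, higher in stem in 4 of 4 animals although the groups just overlap. That difference was of the same size, 1.09, but missed the threshold (SE 0.33, adjusted p = 0.10), and it passed with the animal as a block (1.17, adjusted p = 0.010). In the Paneth fraction Lrig1 was at 35.2, 20.3, 25.4 and 29.1 CPM in het and 28.9, 37.8, 10.8 and 38.1 CPM in hom libraries, all below the stem library of the same animal. It fell by 0.99 on the log2 scale against stem cells in het (SE 0.23, adjusted p = 0.0091) and the difference was -0.94 in hom (adjusted p = 0.080). Paneth against TA was 0.12 in het and 0.16 in hom (adjusted p = 0.73 and 0.81), below 0 with total counts (-0.40 and -0.57).

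Prom1 was the most abundant of the 8 per kilobase in stem and TA libraries, while in Paneth libraries Sox9 was (54.8 against 42.3 CPM per kilobase in het, 53.3 against 41.6 in hom). It was at 459, 491, 431 and 361 CPM in het stem libraries and 329.8, 252, 227 and 233 CPM in het TA libraries, with no overlap. Hom stem libraries had 605, 493, 445 and 466 CPM and hom TA libraries 299.95, 262, 261 and 269 CPM, again with no overlap. The log2 difference was 0.74 in het (SE 0.16, adjusted p = 0.025) and 0.87 in hom (SE 0.14, adjusted p = 0.0071), so Prom1 was higher in stem cells, while its TA levels were still above those of the other 7 genes on the per-kilobase scale. In Paneth libraries it was at 342, 283, 349 and 242 CPM in het and 290.2, 293, 292 and 317 CPM in hom, close to its TA levels. Against stem cells it fell by 0.72 on the log2 scale in hom (SE 0.16, adjusted p = 0.0072), while the het difference was -0.49 (SE 0.20, adjusted p = 0.093). Paneth against TA was 0.25 in het and 0.16 in hom (adjusted p = 0.38 and 0.39), below 0 with total counts (-0.22 and -0.50).

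Mex3a had its lowest mean in TA cells in both genotypes. Het stem libraries had 5.98, 7.19, 6.44 and 5.84 CPM and het TA libraries 3.12, 1.36, 1.79 and 1.88 CPM. The groups did not overlap, and the log2 difference was 1.63 (SE 0.30, adjusted p = 0.013). In hom mice it was at 5.22, 7.98, 6.18 and 4.00 CPM in stem and 2.56, 2.18, 4.19 and 2.89 CPM in TA libraries, which overlap at 1 library on each side, with a difference of 0.98 (SE 0.33, adjusted p = 0.14). Paneth libraries had 5.82, 1.61, 4.97 and 5.50 CPM in het and 9.22, 6.15, 3.49 and 7.31 CPM in hom. Its Paneth against TA difference, 1.16 in het and 1.19 in hom, missed the threshold in both (adjusted p = 0.12 and 0.052). Paneth against stem was -0.47 in het and 0.20 in hom (adjusted p = 0.44 and 0.74).

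Sox9 and Msi1 had their lowest means in TA libraries and their highest in Paneth libraries, with stem libraries between. Sox9 was at 34.5, 33.9, 33.7 and 17.5 CPM in het TA libraries and 82.5, 75.2, 124 and 98.7 CPM in het stem libraries. It reached 288, 284, 122 and 211 CPM in het Paneth libraries, where the third library lies just under the highest stem library. Stem exceeded TA by 1.67 on the log2 scale (SE 0.25, adjusted p = 0.0052) and Paneth exceeded stem by 1.28 (SE 0.29, adjusted p = 0.0087). In hom mice Sox9 was at 48.0, 40.7, 36.6 and 36.1 CPM in TA, 74.2, 84.5, 62.3 and 121 CPM in stem, and 366, 122, 167 and 227 CPM in Paneth libraries. No hom fraction overlapped another, and the same steps were 1.07 (SE 0.21, adjusted p = 0.020) and 1.42 (SE 0.35, adjusted p = 0.013). The former missed the threshold in the fit of all 24 libraries (1.08, adjusted p = 0.053). Paneth against TA was 2.94 in het (adjusted p = 0.00023) and 2.50 in hom (adjusted p = 0.00081).

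Msi1 had the largest log2 difference between fractions of the 8 genes. It was at 0.759, 0.745, 0.960 and 0.271 CPM in het TA, 3.20, 2.62, 2.38 and 2.41 CPM in het stem and 7.17, 11.0, 4.75 and 6.53 CPM in het Paneth libraries. In hom mice the values were 0.713, 0.971, 0.725 and 0.708 CPM in TA, 1.07, 2.55, 2.71 and 3.27 CPM in stem and 10.1, 4.20, 6.11 and 7.74 CPM in Paneth libraries. No fraction overlapped another in either genotype. Paneth against TA was 3.44 on the log2 scale in het (SE 0.52, adjusted p = 0.0012) and 3.21 in hom (SE 0.43, adjusted p = 0.00076). Stem against TA was 1.95 in het (SE 0.45, adjusted p = 0.033) and 1.61 in hom (adjusted p = 0.096), and Paneth against stem was 1.50 (adjusted p = 0.017) and 1.61 (adjusted p = 0.025). With the animal as a block the last of these missed the threshold (1.59, adjusted p = 0.070), and with no filter on low counts stem against TA in het did (1.95, adjusted p = 0.065).

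Hopx was higher in the Paneth fraction, with wide spread there. Het Paneth libraries had 23.1, 18.8, 5.56 and 9.66 CPM against 3.81, 6.28, 5.92 and 4.80 CPM in stem and 2.95, 2.75, 1.97 and 1.99 CPM in TA libraries. Hom Paneth libraries had 34.3, 9.17, 9.27 and 9.54 CPM against 3.73, 6.62, 3.17 and 5.62 CPM in stem and 2.64, 2.74, 2.90 and 4.00 CPM in TA libraries. Every Paneth library lay above every TA library of its genotype, and the log2 differences were 2.58 in het (SE 0.46, adjusted p = 0.0028) and 2.41 in hom (SE 0.51, adjusted p = 0.0073). Against stem cells the differences were 1.49 (adjusted p = 0.030) and 1.77 (adjusted p = 0.029), and both missed the threshold with the animal as a block (1.31, adjusted p = 0.088, and 1.50, adjusted p = 0.071). Stem exceeded TA in 4 of 4 animals of each genotype but missed the threshold, by 1.10 in het (adjusted p = 0.052) and 0.63 in hom (adjusted p = 0.37). DESeq2 called the het difference (1.10, adjusted p = 0.0079), where all 4 stem libraries lay above all 4 TA libraries.

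Bmi1, the Polycomb subunit, was well counted in every fraction and passed the test only between the Paneth and TA fractions of het mice. It was at 23.8, 29.2, 26.0 and 44.5 CPM in het stem, 29.8, 18.4, 24.8 and 20.2 CPM in het TA and 37.7, 48.1, 50.9 and 53.5 CPM in het Paneth libraries. The het Paneth and TA groups did not overlap, and Paneth exceeded TA by 1.05 on the log2 scale (SE 0.21, adjusted p = 0.0052). Hom libraries had 19.6, 33.0, 32.3 and 43.7 CPM in stem, 38.6, 21.8, 28.4 and 24.6 CPM in TA and 56.3, 29.1, 41.6 and 52.8 CPM in the Paneth fraction. Here Paneth against TA was 0.70 (adjusted p = 0.071, or 0.68 with adjusted p = 0.025 with the animal as a block). Stem and TA cells differed by 0.40 in het and 0.17 in hom, with overlapping groups (adjusted p = 0.39 and 0.82). Paneth against stem was 0.65 in het (adjusted p = 0.062, or 0.68 with adjusted p = 0.046 under the block) and 0.53 in hom (adjusted p = 0.18).

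Tert passed no test between fractions. Its values were 4.70, 3.62, 4.06 and 4.60 CPM in het stem, 6.49, 1.13, 3.06 and 5.09 CPM in het TA and 2.47, 7.27, 3.03 and 2.68 CPM in het Paneth libraries. Hom libraries had 3.44, 3.28, 6.79 and 2.93 CPM in stem, 6.92, 3.15, 3.56 and 3.00 CPM in TA and 2.46, 2.24, 3.16 and 0 CPM in the Paneth fraction. The 0 in BP04 allows up to 3 counts, or 0.108 CPM, counting error only. Stem against TA was 0.10 in het (95% interval -0.91 to 1.12) and -0.03 in hom (-0.92 to 0.87), so a 2-fold higher level in stem cells lies inside the het interval. Paneth against TA was -0.01 in het (-1.32 to 1.29) and -1.04 in hom (-3.18 to 1.10), and Paneth against stem -0.11 in het (-1.13 to 0.91) and -1.01 in hom (-3.18 to 1.17).

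**Figure D3:**
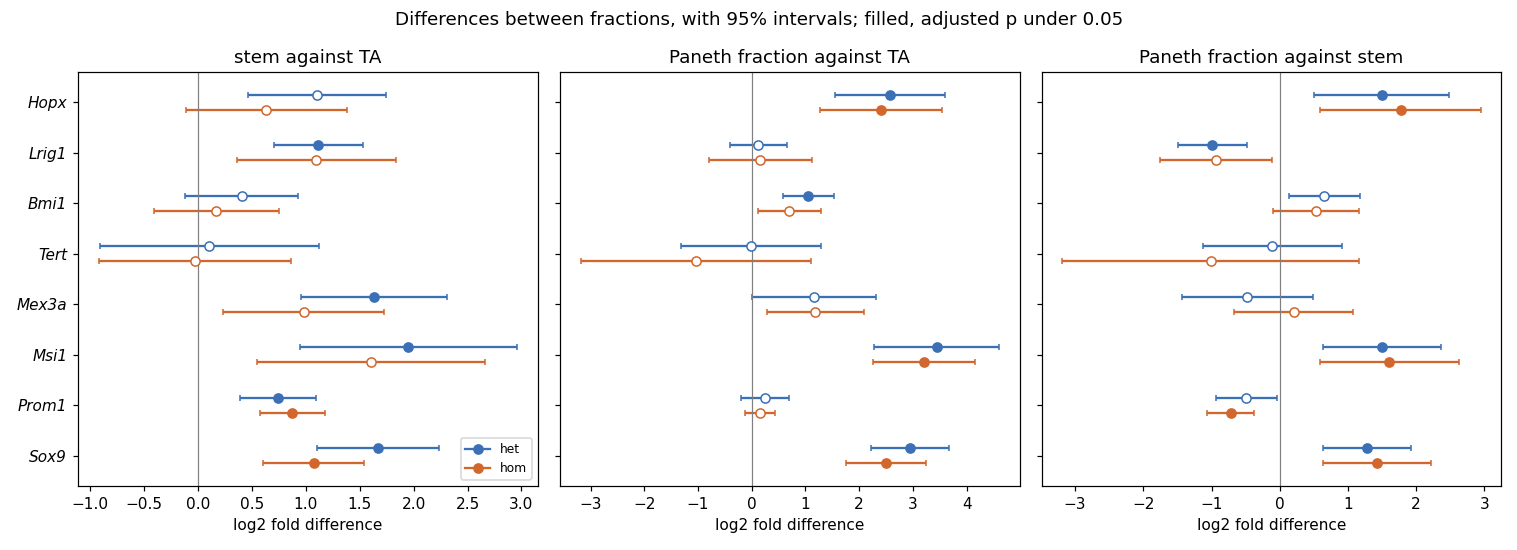
log2 difference between fractions (x axis) for each of the 8 genes (y axis) in het (blue) and hom (orange), with 95% intervals, filled where the adjusted p was under 0.05. Lrig1, Mex3a, Msi1, Prom1 and Sox9 lie right of 0 in stem against TA, Hopx, Msi1 and Sox9 lie furthest right in Paneth against TA, and Lrig1 and Prom1 lie left of 0 in Paneth against stem.

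Several of these calls rest on all 4 animals being in the test. In stem against TA of het mice, Sox9 passed without any 1 animal. The call for Lrig1 was lost without BO27 (1.12, adjusted p = 0.073) or BO58 (1.22, adjusted p = 0.050), and the call for Msi1 without any 1 of the 4 (1.73 to 2.21). Those for Mex3a (1.43 to 1.63) and Prom1 (0.67 to 0.77) were lost without BO27, BO58 or BP03. In hom mice the stem against TA call of Prom1 was lost without BO25 or BO57 (0.86 and 0.91) and that of Sox9 without BO25, BO57 or BP04 (0.80 to 1.15). In Paneth against stem of het mice, Hopx and Msi1 lost theirs without BN44, BO27 or BP03 (Hopx 1.02 to 1.59, Msi1 1.24 to 1.61) and Sox9 without BN44 or BO27 (1.07 and 1.06). In hom mice the same comparison lost Hopx without BN45 (0.87) or BO57 (1.78), Msi1 without BN45 (1.09), BO57 (1.72) or BP04 (1.76), and Sox9 without BN45 (0.96). Every Paneth against TA call in het and hom held without any 1 animal.

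The Paneth values of Hopx, Msi1, Sox9 and Bmi1 depend on the scaling. The 10 most abundant genes held 18.8% to 57.2% of counts in Paneth libraries and 13.1% to 23.7% in stem and TA libraries. TMM raised the CPM of every Paneth library but het BO58, whose factor was 1.11 and whose values it lowered. With total counts only, the median of all genes moved to -0.41 and -0.58 on the log2 scale in Paneth against TA (het and hom) and to -0.47 and -0.57 in Paneth against stem, from 0.0773, 0.0799, 0.0462 and 0.0606. The share of calls that were higher fell from 59.6% to 30.4% and from 57.2% to 22.1% in Paneth against TA, and from 61.1% to 30.3% and from 56.9% to 25.3% in Paneth against stem. Under that scaling the Paneth against stem differences of Hopx (0.86 in het, 0.85 in hom), Msi1 (0.94 and 0.88) and Sox9 (0.69 and 0.65) missed the threshold, with adjusted p from 0.071 to 0.20. The Bmi1 Paneth against TA difference in het dropped to 0.58 (adjusted p = 0.16), and in hom to -0.01. The Paneth against TA calls of Hopx, Msi1 and Sox9 held under both scalings. Prom1 (-0.998 in het, -1.35 in hom) and Lrig1 (-1.55 and -1.64) were lower in the Paneth than in the stem fraction of both genotypes with total counts.

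BN45 shows the size of this effect. Its Paneth library had the lowest TMM factor of all 24, 0.448, and the highest share of Paneth markers, 47.7% of counts. Hopx stood at 34.3 CPM there after TMM and at 15.4 CPM by total counts, and Sox9 at 366 and 164 CPM. Whether the Paneth markers' share accounts for the Paneth values of these genes was not tested.

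**Figure D4:**
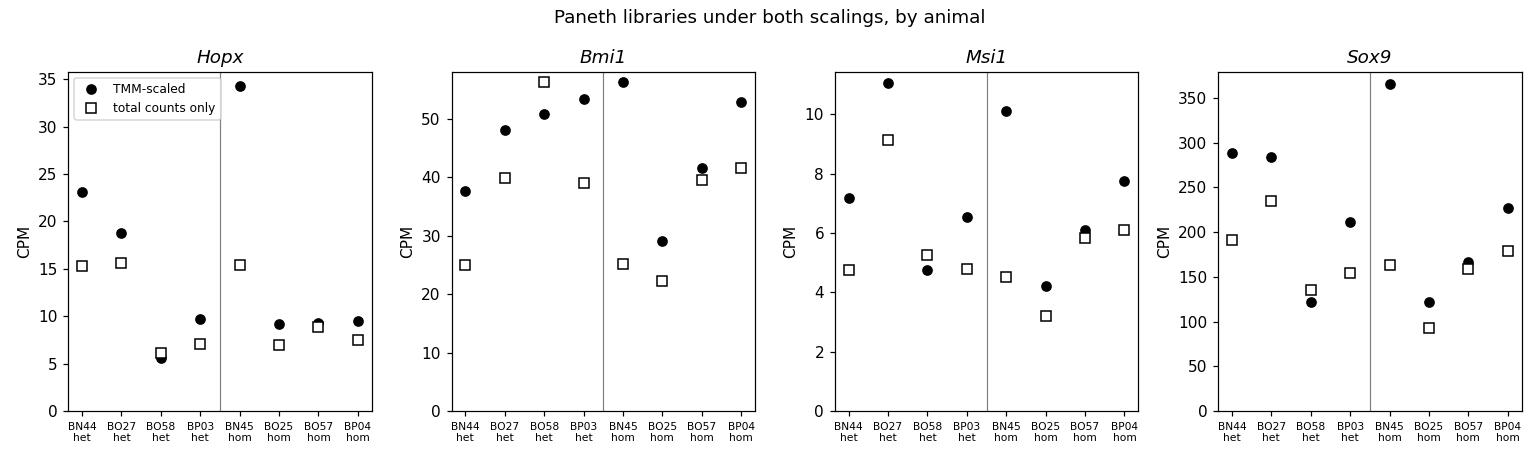
CPM of Hopx, Bmi1, Msi1 and Sox9 (y axis, linear) in the 8 Paneth libraries (x axis, het left of the line, hom right), with TMM scaling as filled circles and total counts only as open squares. The gap is widest in BN45, where Hopx reads 34.3 or 15.4 CPM, and in BO58 the total-count values lie above the TMM values.

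For each of the 8, the 3 genes most like it in profile were picked from these same libraries. That they share its pattern was fixed by this choice. Likeness is the Pearson correlation of log2 CPM over the 24 libraries, which come from 8 animals and 3 fractions and so largely share the fraction differences, searched over 9262 genes with a mean of at least 5 CPM, and it is given as a description. Prom1 was most like Rnf43 (0.91), Ascl2 (0.91) and Smoc2 (0.90), all markers of crypt base columnar cells or their Wnt signalling. Mex3a was most like Grpel2 (0.78), Lgr5 (0.77) and Sorcs2 (0.77), and Lrig1 most like Prss23 (0.84), Sypl (0.84) and Fam118a (0.83). Hopx was most like Lbh (0.92), Zfhx3 (0.91) and Kif3a (0.89), Msi1 like Zfhx3 (0.96), Marcksl1 (0.94) and Tle3 (0.94), and Sox9 like Lbh (0.94), Zfhx3 (0.94) and Phlda1 (0.93). Bmi1 was most like Zfhx3 (0.85), Cdc73 (0.80) and Paip1 (0.80), and Tert like 3 zinc finger or nuclear protein genes, Zfp846 (0.87), Nkrf (0.83) and Zfp709 (0.80). Among the 8 themselves, Msi1 and Sox9 correlated at 0.96, Hopx and Sox9 at 0.93 and Lrig1 and Prom1 at 0.76, while Tert stayed between -0.28 and 0.12 with all others.

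The same contrasts were read in lists of genes that work with the 8, chosen with earlier results of these data known. Of the 15 crypt base columnar markers, 13 passed as higher in the stem fraction than in TA in het mice and 12 in hom mice, with medians of 1.77 and 1.51 on the log2 scale beside 1.11 and 0.93 for the 8 genes here and 0.0196 and 0.00589 for all genes. In Paneth against stem cells of het mice 10 of the 15 were lower and 1 higher, with a median of -1.54, where the 8 had a median of 0.27 with 3 higher and 1 lower. Over all genes, 2.69% in het and 2.03% in hom mice were called higher in stem against TA. In Paneth against stem of het mice 11% were called lower and 17.3% higher. Against TA cells the 2 lists lay closer in the het Paneth fraction. There 6 of the 15 markers were higher and 1 lower (median 0.96), and 4 of the 8 genes higher and 0 lower (median 1.10). Over all genes 17.4% were called higher and 11.8% lower in that contrast. The 15 markers and the 8 genes were both chosen, and no test of the difference between these lists was made.

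Around Bmi1, 18 other Polycomb repressive complex 1 genes were tested. Of these, Rnf2, the catalytic RING subunit (0.73), and Cbx6, a chromodomain subunit (1.63), were higher in het stem than in het TA cells, and 0 passed in hom mice. Over all genes 2.69% were called higher in het, and 4.61% either way in hom mice. In the Paneth fraction against TA cells of het mice, Cbx6 (2.18), Pcgf3 (0.68), Phc1 (1.29) and Pcgf2 (1.28), the close relative of Bmi1, were higher and 0 lower, so 4 of 18 beside 17.4% of all genes called higher, a share near the background. Cdkn2b, a cell cycle inhibitor from a locus that this complex represses, was lower in stem than in TA cells, with a log2 difference of -4.26 in het and -5.50 in hom. Its levels were 1.60 ± 2.28 and 29.8 ± 4.78 CPM in het stem and TA libraries, and Cdkn2a from the same locus was at 0 counts in all 16 stem and TA libraries. Bmi1 itself did not pass the test between those fractions.

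Around Tert, 14 of the 15 telomerase and shelterin genes were tested, and 0 passed between stem and TA cells in either genotype. There 6.26% of all genes were called in het and 4.61% in hom mice, so 0 of 14 is near the background. Terc, the telomerase RNA, which lacks a poly(A) tail, was not tested. In the Paneth fraction against TA cells of het mice, the telomerase RNA-binding genes Dkc1 (-1.07) and Nhp2 (-1.06) and the shelterin gene Terf1 (-1.10) were lower and Terf2 (0.87) was higher. These are 4 of 14 beside 29.2% of all genes called in either direction, again a share near the background. In that comparison all 14 S phase genes and all 14 G2 and mitosis genes tested were lower too, beside 11.8% of all genes.

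Over all genes, stem against TA called 2.69% higher and 3.57% lower in het mice, and 4.61% either way in hom mice. Paneth against TA of het mice called 17.4% higher and 11.8% lower. Among close relatives of the 8, 7 of 10 were tested and 0 passed between stem and TA cells, which is near that background. In the Paneth fraction against TA cells of het mice 2 of the 7 were higher and 0 lower. Msi2, the second Musashi gene, was higher there by 2.64 on the log2 scale, as Msi1 was. Of the receptors that Lrig1 acts on or near, Egfr was lower in the Paneth fraction than in TA cells of het mice (-0.79), Ret was higher (4.60), and 0 passed between stem and TA cells of het mice. In hom mice Ret was at 0 counts in all 4 stem libraries and 0.909 ± 0.256 CPM in TA libraries. It entered that test only through its TA libraries, so its call as lower in stem cells had its direction fixed by the filter. Of 9 other genes reported for reserve or facultative stem cells that were tested, Krt19 (-1.30), Atoh1 (-2.83) and Chga (-7.38) were lower in stem than in TA cells of het mice and 0 higher, the reverse of the 5 genes that rose there. In the Paneth fraction against TA cells of het mice, Dclk1 (0.0559 CPM in TA and 927 CPM in Paneth libraries on average), Prox1 (4.85) and Chga (3.10) were higher and Krt19 (-1.76) lower. Dclk1 and Chga are also tuft and enteroendocrine markers, and all 12 tuft and 10 of 12 enteroendocrine markers were higher in that contrast. Between stem and TA cells of het mice only 5 of the 12 tuft and 9 of the 12 enteroendocrine markers passed the filter on low counts. The others, and Dclk1 at its TA level, entered the Paneth against TA test through the Paneth libraries. For these a higher level there was fixed by the filter. No gene of any of these lists passed the test between hom and het in any fraction.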

How the data were processed

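The authors deposited raw counts per gene. Per the file headers, featureCounts 2.0.1 counted read pairs over Ensembl 98 genes (mm10), ignored strand, required a mapping quality of 1 or more, and was not told to keep multi-mapping fragments or those over several genes. Demultiplexing used bcl2fastq 2.20.0, per the submitters' processing notes. For the aligner, its version was not given in the sources used here. These deposited counts were analysed without change, and 0 columns belonged to no sample. The 92 spike-in rows, with no more than 6 counts per library, were removed.

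The 8 genes, all lists and the tests were chosen with earlier results of these data known. The 8 genes are named by rule, with interactions given by their range. Of the lists, members past the threshold are named in part, and those of the crypt base columnar, S phase, and G2 and mitosis lists are only counted. List members named for the Paneth fraction passed against TA in het mice, and other Paneth calls of the lists are not named. Of genes with like profiles the 3 of highest correlation are named. Each comparison of 4 against 4 libraries was fitted with the edgeR 4.0.16 quasi-likelihood test (R 4.3.3) with TMM normalization and the filterByExpr filter, calling genes at 0.05 after Benjamini-Hochberg adjustment, and interactions in 1 fit of 24 libraries. Fold changes use the scaling of their own comparison, levels that of all 24 libraries (19396 genes). The 95% intervals come from the fitted log2 value and its SE. Intervals and limits at a count of 0 cover counting and replicate error as stated, not capture or sorting. The test was tried on simulated counts first.

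Alternatives were RLE scaling, total counts, DESeq2 1.42.0, no filter, a filter at a mean of 5 CPM, a fit of all libraries, a replicate block and leaving out each animal. Each animal named in the labels gave all 3 fractions, but the main tests between fractions and the interactions did not use this pairing. The animal entered the fraction tests and interactions only under the replicate block. Same-animal deviations correlated between -0.018 and 0.25 across the fraction pairs. Library totals of 24.7 to 47.1 M counts put 1 count at a few hundredths of a CPM.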

Additional observations from a re-analysis of the deposited data

Results flagged for a closer look

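Of the 48 sets of 4 libraries (8 genes in 6 groups), 7 held a library that stood apart from the other 3 by more than a gap test at the 95% level allows, and chance flags about 1 in 20. In hom Paneth libraries, Hopx was highest in BN45, at 34.3 CPM against 9.17 to 9.54 CPM in the other animals. Its total-count value there was 15.4 CPM, also the highest of the 4. Prom1 stood at 317 CPM in hom Paneth library BP04, above 290.2 to 293 CPM in the others, a small gap in a tight group. Tert had such a library 3 times: 6.79 CPM in hom stem BO57, 6.92 CPM in hom TA BN45 and 7.27 CPM in het Paneth BO27. These were 3 different animals, and the others of each group lay between 2.47 and 3.56 CPM. Msi1 was at 0.971 CPM in hom TA BO25 above 0.708 to 0.725 CPM, and Sox9 was at 17.5 CPM in het TA BP03 below 33.7 to 34.5 CPM. BP03 was the lowest library of the lower group, so leaving it out could not make the Sox9 TA libraries of het and hom mice overlap.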

How the results depend on the processing

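None of the 22 calls on single genes changed direction under any alternative, and 135 of their 148 values under settings that keep all libraries, and 57 of 88 with 1 animal left out, passed the test as before. The number of the 8 genes called stayed at 0 in the 3 genotype comparisons and the 3 interactions under every alternative. In stem against TA of het mice it was 5, to which DESeq2 added Hopx. It was 3 with the filter at a mean of 5 CPM, which drops Mex3a and Msi1 from the test. In hom mice it was 2, and 4 with DESeq2, which added Lrig1 and Msi1. In Paneth against TA of hom mice it was 3, and 5 with DESeq2, which added Bmi1 and Mex3a. In Paneth against stem it was 4 in each genotype, 2 with total counts in each, and 2 with the replicate block in hom mice. Leaving out 1 animal gave 1 to 4 in stem against TA and in Paneth against stem of het mice, 0 to 2 and 1 to 4 in hom mice, 4 in Paneth against TA of het mice and 3 to 4 in hom mice. Each of these leaves fewer libraries in the test, and for the other settings the cause was not tested.

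Some uncalled values changed sign. With total counts these were, hom against het, Lrig1 in stem (-0.040) and in Paneth cells (-0.13) and Hopx in Paneth cells (-0.19). In Paneth against TA they were Lrig1 (-0.40) and Prom1 (-0.22) in het, and Lrig1 (-0.57), Bmi1 (-0.012) and Prom1 (-0.50) in hom mice, and in Paneth against stem of hom mice Bmi1 (-0.15) and Mex3a (-0.56). In the interactions they were Hopx (0.011), Lrig1 (0.086), Msi1 (0.062) and Sox9 (0.048) for stem minus Paneth, and Lrig1 (-0.18) and Mex3a (-0.23) for Paneth minus TA. Tert in Paneth against TA of het mice turned to 0.015 with RLE and 0.014 with DESeq2. With the replicate block Lrig1 turned in stem (-0.012), TA (-0.052) and Paneth cells (-0.053), hom against het, and in stem minus TA (0.029). The genotype block used neighbouring animal codes, which the labels do not call litters and whose deviations correlated between -0.000816 and 0.23, not above 0.1 in every pair, so the genotypes were compared unpaired. In TA every sample correlated best with its neighbour, while in stem and Paneth libraries not every sample did, a hint from the data and not the design. It called 0 of the 8 genes, and 1, 0 and 0 genes over all.

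With 1 animal left out, hom against het in stem ran from -0.34 to 0.026 for Hopx, -0.11 to 0.15 for Lrig1, -0.13 to 0.27 for Bmi1, -0.41 to 0.074 for Tert, -0.33 to 0.017 for Mex3a and -0.34 to 0.085 for Msi1. In TA it ran from -0.23 to 0.28 for Lrig1, -0.28 to 0.43 for Tert and -0.070 to 0.40 for Msi1. In Paneth cells it ran from -0.66 to 0.50 for Hopx, -0.093 to 0.34 for Lrig1, -0.25 to 0.086 for Bmi1, -0.33 to 0.19 for Msi1, -0.13 to 0.048 for Prom1 and -0.44 to 0.17 for Sox9. Between fractions of het mice Tert ran from -0.12 to 0.40 (stem against TA), -0.80 to 0.49 (Paneth against TA) and -0.68 to 0.10 (Paneth against stem), and Lrig1 from -0.030 to 0.27 (Paneth against TA). In hom mice Bmi1 ran from -0.079 to 0.53 and Tert from -0.44 to 0.41 (stem against TA), Lrig1 from -0.21 to 0.40 (Paneth against TA) and Mex3a from -0.10 to 0.44 (Paneth against stem). Interactions for stem minus TA ran from -0.12 to 0.14 for Lrig1, -0.47 to 0.15 for Bmi1 and -0.54 to 0.33 for Tert. For stem minus Paneth they ran from -0.70 to 0.61 for Hopx, -0.28 to 0.25 for Lrig1, -0.035 to 0.45 for Bmi1, -0.35 to 0.39 for Msi1 and -0.34 to 0.31 for Sox9. For Paneth minus TA they ran from -1.03 to 0.12 for Hopx, -0.36 to 0.30 for Lrig1, -0.26 to 0.44 for Mex3a, -0.64 to 0.049 for Msi1 and -0.17 to 0.0095 for Prom1.

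Counts over all genes moved more. Stem against TA called 1013 genes in het and 736 in hom mice, 1848 and 1427 with the replicate block and 1966 and 1572 with DESeq2. Hom against het called 2 genes in stem, 18 with the filter at 5 CPM, 8 in the fit of all libraries, 1 with the block and 187 with DESeq2. In TA it called 0 genes, 4 with the filter at 5 CPM, 1 in the fit of all libraries and 70 with DESeq2, and in Paneth cells 0, with 2 by total counts, 8 without a filter, 2 in the fit of all libraries and 6 with DESeq2. DESeq2 called 14, 48 and 23 genes in the interactions, against 0, 0 and 1. For stem minus Paneth, 1 was called without a filter, 1 with the filter at 5 CPM and 2 with the block. Tert and Msi1 had the lowest median counts of the 8 genes, 117 and 95, and the part of depth in their spread was not tested.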
